A study of Mus musculus with 11 samples.

Results

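The response of adipose tissue to obesity-associated acute pancreatitis (OA-AP) was set against the response of the pancreas of the same mouse model, gene by gene. All 11 of the 11 libraries of the series entered the comparison: 3 control and 3 OA-AP libraries of adipose tissue, and 2 control and 3 OA-AP libraries of pancreas. The control mice ate a chow of 10 kcal% fat and received saline. The OA-AP mice ate a high-fat diet of 60 kcal% fat for 12 weeks from 4 to 5 weeks of age and then received 2 intraperitoneal injections of ethanol at 2 g/kg, 1 h apart, and tissue was taken 12 h after the first injection. All were wild-type male C57BL/6 mice of 16 weeks (C57BL/6J in the study's methods), and none of the libraries analysed here came from mice given the herbal decoction CQCQD. Diet, ethanol and pancreatitis differed together between the groups, so their parts cannot be told apart. The adipose tissue was the epididymal fat pad. The labels do not say whether an adipose and a pancreas sample of one number came from the same mouse, or which clock hour the tissue was taken at.

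White adipose tissue stores triglyceride in adipocytes and releases fatty acids, hormones and, in inflammation, cytokines and acute phase proteins. The exocrine pancreas is made mostly of acinar cells, which make digestive enzymes at a very high rate and depend on the endoplasmic reticulum (ER), the compartment in which secreted proteins fold, on amino acid supply and on mitochondria. In acute pancreatitis acinar cells lose enzyme expression and switch on stress genes, while fat around the abdominal organs is injured and inflamed as well. A gene can therefore move in both tissues together, in opposite directions or in 1 tissue alone, and the comparison asks which.

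The adipose libraries held 20816880 to 27916057 counts and the pancreas libraries 14165335 to 17211715, over the 45260 genes present in both tables. Changes are log2 fold changes of OA-AP against control, and the difference between the tissues is the adipose change minus the pancreas change. A change or difference was called at an adjusted p under 0.05 and a fold of at least 1.5. Levels are CPM, counts scaled for sequencing depth and for a trimmed mean factor of each library, on 1 scale for all 11 libraries. The factors were 1.74 to 1.98 in adipose tissue and 0.337 to 0.621 in pancreas. Levels are therefore not shares of reads, and comparing them between the tissues rests on these factors. Where 2 values follow a gene in brackets or after a verb with no unit, they are its log2 changes in adipose tissue and in pancreas, in that order. Classes were counted over the 11469 genes that reached a mean of 1 CPM in each tissue. The labels were matched by the markers: the adipocyte genes Adipoq (1381 to 1999 CPM) and Cidec (1526 to 1960 CPM) were high in all 6 adipose libraries and at or under 0.487 CPM in the pancreas, and the insulin gene Ins2 read 1127 to 2176 CPM in the pancreas and at most 0.0225 CPM in adipose tissue. A list of 33 acinar enzyme genes took 74.3% and 76.2% of counts in the pancreas controls, 57.5% to 59.9% in pancreas OA-AP and 0.000974% to 0.00188% in 5 adipose libraries, but 0.956% in adipose control replicate 2. That library stood apart by this acinar RNA. Acinar enzyme and Reg genes are therefore not described as members of any class, although they stay in the counts over all genes: 19 of the 24 acinar enzyme genes measured in both tissues were called lower in adipose OA-AP with that library, and their median difference between tissues went from -8.91 with it to 2.29 without it.

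Because acinar enzymes lost part of their share of the pancreas counts, the scaling of the libraries matters. With the trimmed mean scaling used throughout, the median gene changed by 0.06 in adipose tissue and 0.07 in pancreas. With library totals alone the medians were -0.10 and 0.75, and the median difference went from 0.01 to -0.83. A pancreas fall described in the next paragraphs is a fall against the median gene, and falls of named genes that ended or turned with library totals are given where they stand.

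Of the 11469 genes, 1495 (13.0%) rose and 990 (8.63%) fell in adipose tissue, while 2238 (19.5%) rose and 1724 (15.0%) fell in pancreas. The change differed between the tissues in 3166 genes (27.6%), being higher in adipose tissue in 1631 (14.2%) and lower in 1535 (13.4%). Over all 17046 genes fitted it was called for 3507 (20.6%). Of these called differences 50.6% were higher in adipose tissue, against 5.73% of 6527 with library totals alone. Both tissues rose in 542 genes (4.73%) and both fell in 306 (2.67%). Adipose tissue rose while the pancreas fell in 114 genes (0.994%), and adipose tissue fell while the pancreas rose in 118 (1.03%). Without adipose control replicate 2, the library with acinar RNA, these 4 classes held 394, 332, 97 and 129 genes. Single libraries moved some counts by over 1.5 times: the rises in both tissues numbered 356 and 353 without adipose control replicate 1 or 3, the falls in both 188 without pancreas control replicate 1, the adipose rises with a pancreas fall 67 and 72 without adipose OA-AP replicate 3 or control replicate 3, and the differences over all genes 2332 without pancreas control replicate 2. Of the 1080 genes called in both tissues, 848 (78.5%) moved the same way and 232 in opposite ways. The genes up in both made up 36.3% of the adipose rises and 24.2% of the pancreas rises. Those down in both made up 30.9% of the adipose falls and 17.8% of the pancreas falls. Size differed even among genes that moved the same way. The difference was called for 132 of the 848, with the larger rise in pancreas for 66 genes and in adipose tissue for 16, and the larger fall in pancreas for 46 and in adipose tissue for 4. Across the 11469 genes the adipose and pancreas changes had a Pearson r of 0.356, a description across genes that share 11 libraries and are not independent.

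**Figure D1:**
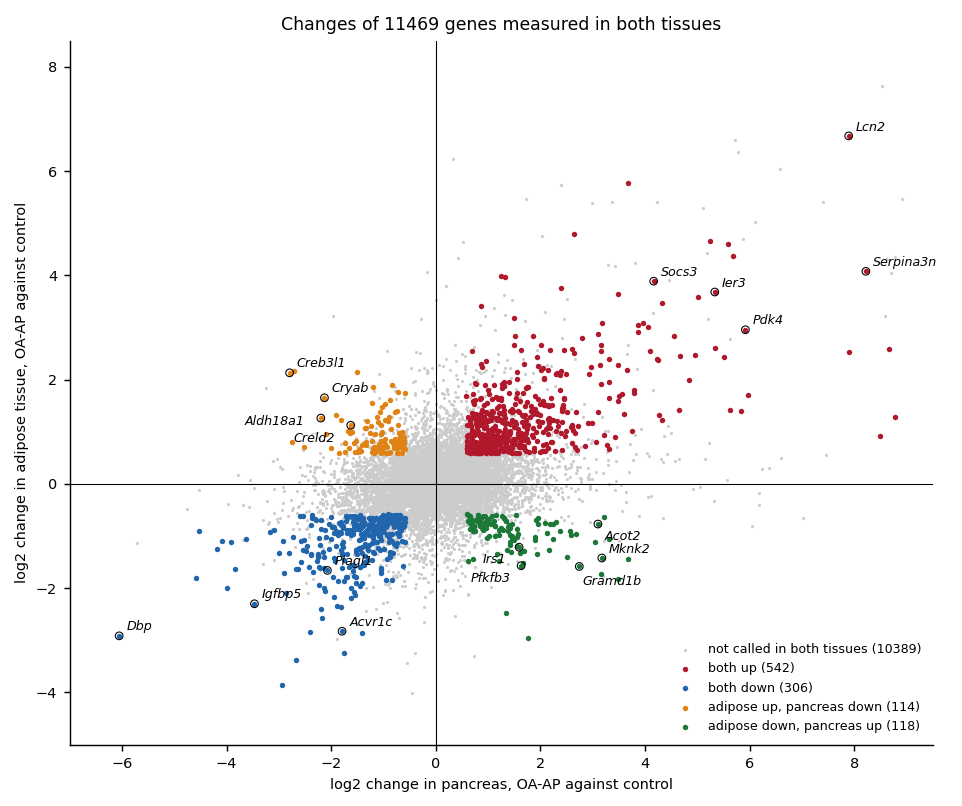
Log2 change of each gene in pancreas (horizontal axis) and in adipose tissue (vertical axis), OA-AP against control, for the genes measured in both tissues, with 48 of the 11469 lying outside the axes. Coloured points were called in both tissues, 542 up in both, 306 down in both, 114 up in adipose tissue and down in pancreas and 118 the other way, and circled genes are named in the text.

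Genes called in 1 tissue were not all particular to it. Of 4287 such genes, 1953 had no called difference between the tissues. A gene is named here as changed in 1 tissue alone where the difference was called and the other tissue had an adjusted p of 0.05 or more. On these terms 341 genes (2.97%) were up and 170 (1.48%) down in adipose tissue alone, and 877 (7.65%) were up and 721 (6.29%) down in pancreas alone. No call in either tissue was made for 6102 genes (53.2%), 468 of which had a called difference.

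Ranked by the smaller of their changes, past a level filter, the genes that rose most in both tissues included secreted inflammation proteins and a cytokine feedback gene. Genes of other kinds, such as Ier3 and Lox, are given further below. Lcn2, which encodes lipocalin 2, an iron-carrier binding protein of the acute phase, read 5.05, 3.98 and 6.18 CPM in the adipose controls, 294, 1045 and 219 in adipose OA-AP, 1.27 and 2.27 in the pancreas controls and 379, 216 and 654 in pancreas OA-AP. The groups did not overlap in either tissue, and the log2 changes were 6.67 ± 0.73 (SE, adjusted p = 0.0003) in adipose tissue and 7.89 ± 1.04 (adjusted p = 0.00041) in pancreas. Serpina3n, a serine protease inhibitor of the acute phase, read 278, 281 and 213 CPM in adipose controls, 4118, 5074 and 3849 in adipose OA-AP, 0.906 and 0.207 in pancreas controls and 239.6, 118 and 161 in pancreas OA-AP. It started from a high level in adipose tissue and from near 0 in pancreas, and its rise was larger in pancreas, by a difference of -4.15 ± 0.61 (adjusted p = 0.00081). Socs3, the feedback inhibitor of IL-6 and STAT3 signalling, went from 7.77, 6.08 and 6.62 to 118, 87.1 and 98.5 CPM in adipose tissue and from 9.06 and 6.82 to 87.3, 68.6 and 273 CPM in pancreas. Its rises of 3.89 and 4.17 differed by -0.28 ± 0.73, which was not called (adjusted p = 0.85).

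Of the 14 acute phase and secreted inflammation genes measured in both tissues, 10 rose in adipose tissue, 9 in pancreas and 8 in both, against 13.0%, 19.5% and 4.73% of all genes, with median changes of 4.49 and 5.42. Leaving out single libraries left 5 to 8 pancreas rises and 5 to 7 rises in both, the latter 5 without adipose OA-AP replicate 1, either pancreas control or pancreas OA-AP replicate 3 and the former 5 without pancreas control replicate 2, while limma voom called 3 and 3. Besides Lcn2 and Serpina3n, haptoglobin (Hp) rose by 1.96 and 3.32, and the pentraxin Ptx3 rose from at most 0.810 CPM to 88.8, 263 and 113 CPM in adipose tissue and from 0 in both pancreas controls to 38.6, 8.76 and 88.6 CPM. Among 19 genes of the IL-6 family and STAT3, 13 rose in adipose tissue (8 without adipose control replicate 1), 11 in pancreas and 9 in both. Stat3 itself rose by 1.38 and 3.10, more in pancreas by a difference of -1.73 ± 0.29 (adjusted p = 0.0017). The oncostatin M receptor Osmr rose by 2.12 and 2.31, and the NF-kB cofactor Bcl3 by 3.05 and 3.86. Il6 rose in adipose tissue by 6.04 ± 1.43 (adjusted p = 0.013), though its level stayed low, at 5.74, 2.23 and 8.76 CPM against 0.0393, 0.135 and 0.0725 CPM in the controls. Without adipose control replicate 1 that call ended (5.62, adjusted p = 0.050). In pancreas Il6 read 0.181 and 0 CPM in controls and 1.56, 0.487 and 27.0 CPM in OA-AP, and its change was not called (adjusted p = 0.075).

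Further genes up in both tissues with no overlap of groups in either were Ier3, an early stress gene, with changes of 3.68 and 5.33, and Lox, the collagen cross-linking enzyme lysyl oxidase, with 3.08 and 3.18. Tnfrsf12a, the receptor for the cytokine TWEAK, rose by 2.92 and 3.87, and Il4ra, the receptor chain shared by IL-4 and IL-13, by 2.88 and 3.09. Timp1, an inhibitor of matrix metalloproteinases, went from 2.67, 2.03 and 2.72 to 148, 94.2 and 165 CPM in adipose tissue and from 0 and 1.03 to 5.68, 5.47 and 7.61 CPM in pancreas. Pdk4, the kinase that shuts off pyruvate dehydrogenase, read 28.5, 59.6 and 31.3 CPM in adipose controls, 231, 382 and 312 in adipose OA-AP, 10.9 and 7.65 in pancreas controls and 554, 430.2 and 704 in pancreas OA-AP. Its rise was larger in pancreas (5.92) than in adipose tissue (2.96), with a difference of -2.96 ± 0.50 (adjusted p = 0.002). The glucocorticoid-induced gene Fkbp5 rose by 2.40 and 4.22, while Nr3c1, the glucocorticoid receptor, fell by 0.93 in adipose tissue and 0.98 in pancreas on the log2 scale. Scaled by library totals, the Nr3c1 value in pancreas was -0.29 and not called.

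Among 18 heat shock genes, 11 rose in adipose tissue, 11 in pancreas and 7 in both, against 13.0%, 19.5% and 4.73% of all genes. The 7 included Hspb1, a small heat shock protein (2.40 and 3.31), and Hspa8, the constitutive HSP70 chaperone (1.60 and 1.25). Cryab, a small heat shock protein, and Hspe1, the mitochondrial HSP10, moved in opposite ways. Their adipose changes were 1.65 and 0.72 and their pancreas changes -2.13 and -0.75. Another member of the list fell in pancreas alone. The opposite direction of Hspe1 rested on the scaling, since by library totals its values were 0.56 and -0.063, neither called, and its adipose rise also fell short of 1.5-fold without adipose OA-AP replicate 1 (0.56). The heat shock counts rested on the pancreas controls: without control replicate 1 or 2 there were 6 or 3 pancreas rises and 4 or 2 rises in both, and limma voom called 7 and 5. Of 7 metallothionein and zinc transport genes, 5 rose in adipose tissue and 4 of these in pancreas too. The latter count was 2 without any single adipose control, adipose OA-AP replicate 3 or pancreas control replicate 1. The metal-binding protein Mt1 rose by 4.78 and 2.65, and its partner Mt2 read 115, 66.1 and 38.3 CPM in adipose controls and 3507, 3327 and 2903 in adipose OA-AP, against 3.62 and 18.4 and 40.2, 19.8 and 47.9 CPM in pancreas. The Mt2 change of 5.47 in adipose tissue was called, that of 1.72 in pancreas was not, and the difference of 3.75 ± 0.82 was (adjusted p = 0.0091). The Mt1 and Mt2 differences rested on pancreas control replicate 2 and were not called without it (1.71, adjusted p = 0.11, and 2.16, adjusted p = 0.10).

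More of the early response and p53 genes rose in pancreas than in adipose tissue. Rises were also more frequent in pancreas over all genes, at 19.5% against 13.0% in adipose tissue, with 4.73% in both. The difference was lower in adipose tissue for 13.4% of all genes and higher for 14.2%. Of 20 AP-1 and immediate early genes, 9 rose in adipose tissue, 14 in pancreas and 7 in both, and the difference was called lower in adipose tissue for 7 and higher for 2. Junb read 16.8, 15.9 and 16.1 CPM in adipose controls and 111, 70.2 and 88.1 in adipose OA-AP, and 7.97 and 8.27 and 168, 193 and 394 CPM in pancreas, so that its rise of 4.96 in pancreas exceeded that of 2.47 in adipose tissue (difference -2.49 ± 0.48, adjusted p = 0.0042). Jun rose in pancreas alone, by 2.54, against 0.31 in adipose tissue. Of 23 p53 genes, 8 rose in adipose tissue, 17 in pancreas and 7 in both, with 10 differences called lower in adipose tissue. The adipose count was 5 without any single adipose library but OA-AP replicate 2. Scaled by library totals, the lower differences numbered 11 in the early response list and 19 in the p53 list, and limma voom called 9 pancreas rises and 4 lower differences in the former. Cdkn1a, the cell cycle inhibitor p21, rose by 1.70 in adipose tissue, from 26.3, 24.4 and 22.3 to 47.8, 131 and 58.3 CPM, and by 5.97 in pancreas, from 7.43 and 4.96 to 391, 265 and 516 CPM. Eda2r, a death receptor of the TNF family, rose in pancreas from 0.181 and 0.207 to 19.8, 18.2 and 19.4 CPM, while adipose tissue read 1.55, 1.80 and 2.05 CPM in controls and 2.29, 2.13 and 3.19 in OA-AP. Bbc3, which encodes the cell death activator PUMA, went in opposite ways, with -1.35 in adipose tissue and 1.94 in pancreas (difference -3.28 ± 0.42, adjusted p = 0.00033).

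Among the shared falls was that of the output of the circadian clock, the transcription loop that gives most cells a daily rhythm. Of 19 clock genes, 9 fell in each tissue and 8 fell in both, against 2.67% of all genes, while Cry1 and Nfil3 rose in both. Dbp, a transcription factor driven directly by the clock, read 43.2, 32.4 and 46.8 CPM in adipose controls, 8.41, 4.55 and 3.27 in adipose OA-AP, 73.2 and 128 in pancreas controls and 0.780, 3.41 and 0.447 in pancreas OA-AP. It fell by 2.92 ± 0.45 on the log2 scale in adipose tissue and by 6.05 ± 0.62 in pancreas, and the larger pancreas fall was called (difference 3.14 ± 0.77, adjusted p = 0.017). Per3 went the same way (-1.62 and -3.83), as did Dbp's relatives Tef (-1.18 and -2.47) and Hlf (-2.36 and -1.82), the repressors Nr1d1 (-1.45 and -0.94), Nr1d2 (-1.41 and -0.89) and Ciart (-1.61 and -2.14). Nfil3, which represses the sites that Dbp activates, rose by 3.08 and 3.96, and Cry1 by 1.23 and 1.23. Arntl, which encodes the clock activator BMAL1, rose in pancreas from 4.17 and 2.07 to 41.7, 23.6 and 39.7 CPM (change 3.47 ± 0.49), while adipose tissue read 2.77, 2.95 and 2.63 CPM in controls and 2.57, 6.92 and 4.11 in OA-AP (change 0.70, not called).

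Pancreas control replicate 2 held the higher Dbp, Per3, Tef and Ciart levels of the 2 pancreas controls. Without it the pancreas calls of Hlf, Ciart, Nr1d1 and Nr1d2 ended (adjusted p of 0.095, 0.073, 0.054 and 0.10), as did the called differences of Dbp (2.68, adjusted p = 0.070), Per3 (1.74, adjusted p = 0.051) and Arntl (-2.37, adjusted p = 0.052). The Nr1d1 call in pancreas also ended without pancreas control replicate 1 (0.11) or OA-AP replicate 1 (0.057), and the Tef call in adipose tissue without adipose control replicate 1 or 3 or OA-AP replicate 2 or 3 (adjusted p of 0.061 to 0.086). Scaled by library totals, the Nr1d1 and Nr1d2 values in pancreas were -0.26 and -0.18 and not called, and 5 clock genes fell in both tissues, while without pancreas control replicate 2 the number was 3. The clock hour of collection was not given for either group, and its part in these falls was not tested.

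Among the other genes down in both tissues was Igfbp5, an insulin-like growth factor binding protein, which read 196, 209 and 263 CPM in adipose controls, 40.9, 51.4 and 43.4 in adipose OA-AP, 54.2 and 35.1 in pancreas controls and 4.35, 5.47 and 2.35 in pancreas OA-AP. As the ranking required, all 3 OA-AP libraries lay below every control in each tissue. Plagl1, a zinc finger transcription factor that restrains growth, fell from 76.7, 67.6 and 67.1 to 23.9, 21.7 and 21.4 CPM in adipose tissue and from 24.3 and 30.8 to 5.57, 7.79 and 6.26 CPM in pancreas. Its changes of -1.66 and -2.07 differed by 0.41 ± 0.21 (adjusted p = 0.19, not called). Acvr1c, the activin receptor ALK7 of adipocytes and islet cells, fell by 2.83 in adipose tissue and 1.79 in pancreas, and Clec3b, the secreted protein tetranectin, by 1.59 and 1.67, all on the log2 scale. The others were Fam117a (-1.68 and -2.34), Dennd2d (-2.08 and -1.56), Zfp395 (-1.91 and -1.53) and Igfals (-1.67 and -1.58), the partner of IGF binding proteins in serum. Scaled by library totals, the pancreas values of Zfp395 (-0.83, adjusted p = 0.084) and Igfals (-0.89, adjusted p = 0.15) were not called, and leaving out any single pancreas library also ended the Igfals call there (adjusted p of 0.056 to 0.11). Ppargc1a, the coactivator that drives mitochondrial biogenesis, fell by 2.09 and 2.86.

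MHC class II genes, which mark antigen-presenting cells, fell in adipose tissue (7 of 7, median -1.09), and 4 of the 7 fell in pancreas as well (median -0.89). H2-Aa read 126, 178 and 124 CPM in adipose controls and 34.3, 83.6 and 62.8 in adipose OA-AP, against 30.1 and 21.5 and 12.4, 14.1 and 12.3 CPM in pancreas. The pancreas calls rested on every library: those of H2-Aa, H2-Ab1 and H2-Eb1 ended without any single pancreas library (adjusted p of up to 0.29), Ciita's without any but OA-AP replicate 1 (up to 0.18), and all 4 ended with library totals alone. T and B lymphocyte markers summed to 91.4 to 425.5 CPM in adipose controls and 32.3 to 85.1 CPM in adipose OA-AP, highest in control replicate 2, and to 35.1 to 58.3 CPM and 17.9 to 18.3 CPM in pancreas. In these bulk samples fewer cells of a type and less RNA per cell cannot be told apart.

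**Figure D2:**
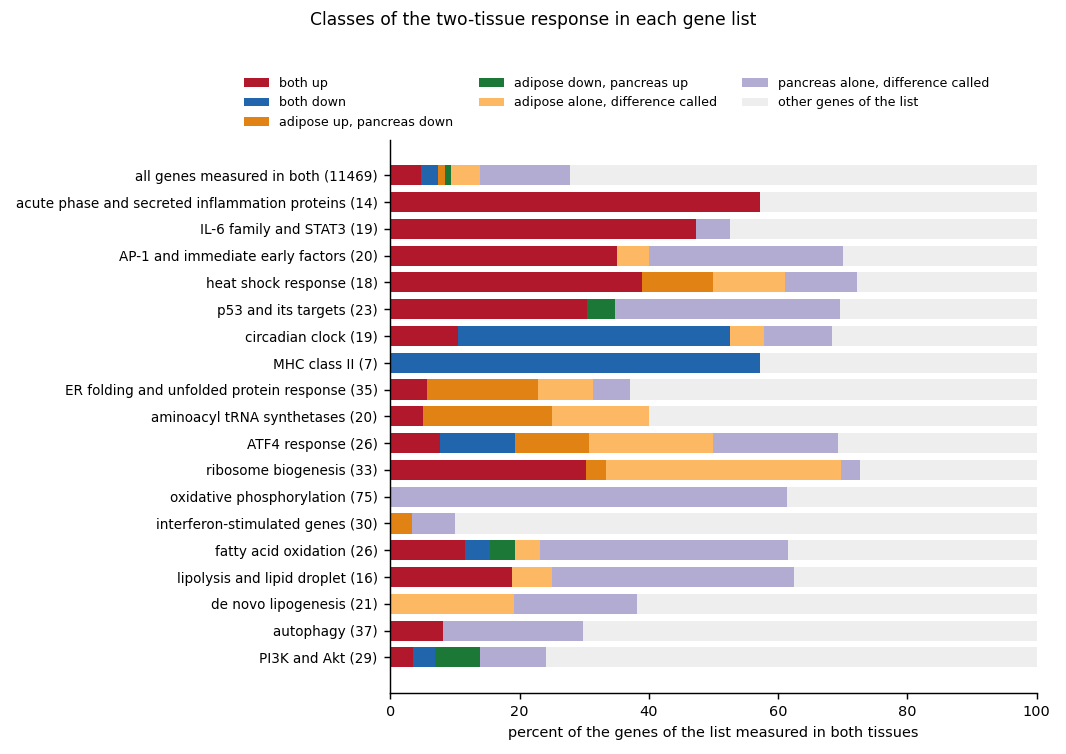
Share of each gene list in each class (horizontal axis, percent of the genes measured in both tissues, number in brackets), with all 11469 genes in the top bar. Both up takes the widest share of the acute phase, IL-6 and STAT3, early response and heat shock lists and both down that of the clock and MHC class II lists, adipose up with pancreas down stands out for ER folding genes and tRNA synthetases, and pancreas alone for oxidative phosphorylation, fatty acid oxidation and lipolysis.

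Genes that rose in adipose tissue and fell in pancreas included genes of protein synthesis and of folding for secretion. Creb3l1, an ER-bound transcription factor that controls secretory genes, read 14.3, 14.7 and 16.5 CPM in adipose controls, 62.5, 49.3 and 87.6 in adipose OA-AP, 62.7 and 68.0 in pancreas controls and 7.80, 12.8 and 7.72 in pancreas OA-AP. On this scale adipose tissue ended near the level at which the pancreas began, which rests on the scaling factors of the libraries. The changes were 2.13 ± 0.22 and -2.80 ± 0.26, and the difference of 4.93 ± 0.34 (adjusted p = 1.4e-05) was the largest of the class among genes past the level filter. Creld2, an ER disulfide isomerase, read 9.15, 10.6 and 10.3 CPM in adipose controls and 19.1, 18.6 and 27.9 in adipose OA-AP, and 125 and 142 CPM and 38.2, 46.0 and 45.4 CPM in pancreas. It rose by 1.12 in adipose tissue and fell by 1.63 on the log2 scale in pancreas. Sec24d, a coat protein of vesicles that leave the ER, rose by 1.12 and fell by 1.63. Aldh18a1, the first enzyme of proline synthesis, went from 5.62, 7.36 and 6.07 to 14.2, 16.6 and 14.9 CPM in adipose tissue and from 114 and 114 to 24.2, 29.4 and 20.9 CPM in pancreas (difference 3.46 ± 0.21, adjusted p = 1.1e-05). Pycr1, a later enzyme of that pathway, fell in pancreas from 112 and 117 to 7.69, 10.8 and 10.3 CPM and read 1.87, 1.44 and 1.65 CPM in adipose controls and 0.772, 1.05 and 1.84 in adipose OA-AP. The remaining genes of the class by size of difference were Cryab, described with the heat shock genes, Lgi2, a secreted neuronal protein (1.31 and -1.91), Atp8b1, a phospholipid flippase (1.90 and -0.83), and Ampd2, an AMP deaminase (1.02 and -1.69). The class held 16 genes with library totals alone. Of the 8 named, the pancreas fall of Atp8b1 then ended (-0.15, adjusted p = 0.52), and those of the other 7 were -0.94 to -2.10 and called.

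Among 35 genes of ER folding and the unfolded protein response, 13 rose in adipose tissue (8 without adipose control replicate 1 or 3 and 6 without OA-AP replicate 3), while 3 rose and 14 fell in pancreas. The difference was higher in adipose tissue for 17 and lower for 1, and the medians were 0.50 in adipose tissue and -0.37 in pancreas. Of all genes, 13.0% rose in adipose tissue, 19.5% rose and 15.0% fell in pancreas, and 14.2% had a higher difference. Opposite calls were made for 6 genes, against 0.994% of all genes: Creld2, the chaperone partners Dnajb11 (0.76 and -0.67) and Sdf2l1 (1.12 and -1.23), the protein disulfide isomerase P4hb (0.70 and -1.03), the translocon-associated protein Ssr2 (0.75 and -0.77) and the stress sensor Atf6 (0.59 and -0.96). Of 20 cytosolic aminoacyl tRNA synthetases, which load amino acids onto tRNAs, 10 rose in adipose tissue, 1 rose and 7 fell in pancreas, and 15 differences were called higher in adipose tissue, with medians of 0.59 and -0.55. The pancreas falls numbered 11 without any single adipose library or pancreas OA-AP replicate 3, and 12 with DESeq2. Iars, Nars, Tars and Yars were called in opposite directions. Yars read 18.8, 19.2 and 17.6 CPM in adipose controls, 41.4, 38.0 and 37.6 in adipose OA-AP, 48.0 and 54.1 in pancreas controls and 20.9, 20.8 and 18.8 in pancreas OA-AP, with little spread within any group. Its difference was 2.42 ± 0.15 (adjusted p = 1.1e-05), beside 2.20 for Iars, 1.88 for Nars and 1.68 for Tars. The exception was Vars, which rose in both, by 0.62 and 1.73, with the larger rise in pancreas, although its adipose rise fell short of a 1.5-fold change without any of 5 single adipose libraries (0.44 to 0.56). In the one-carbon and serine arm of the ATF4 response, Mthfd2 (1.48 and -1.03) and Shmt2 (0.73 and -0.98) were opposite as well.

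In the ER stress response Hspa5, Xbp1 and Eif2ak3 rose in pancreas, while Ddit3 fell there. Hspa5, the main ER chaperone BiP, read 161, 207 and 174 CPM in adipose controls, 385, 395 and 577 in adipose OA-AP, 720.4 and 848 in pancreas controls and 1230, 1085 and 2483 in pancreas OA-AP, with rises of 1.32 and 1.03. Xbp1, the transcription factor spliced by the sensor IRE1, rose by 1.81 and 1.00. Eif2ak3, which encodes the sensor PERK, rose in pancreas alone (1.21, against 0.23 in adipose tissue, a difference not called without either pancreas control), and Ddit3, which encodes CHOP, fell in pancreas from 15.4 and 14.7 to 4.79, 4.14 and 2.80 CPM and read 6.86, 9.14 and 8.32 and 8.61, 8.91 and 9.19 CPM in adipose controls and OA-AP. The pancreas rise of Hspa5 was not called without adipose control replicate 1 or 3, either pancreas control or pancreas OA-AP replicate 3, the highest library (adjusted p of 0.053 to 0.20), and that of Xbp1 without either pancreas control (0.098 and 0.13). Manf, an ER stress cytoprotective factor (1.5), and Hyou1, an ER chaperone (1.16), rose in adipose tissue alone.

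**Figure D3:**
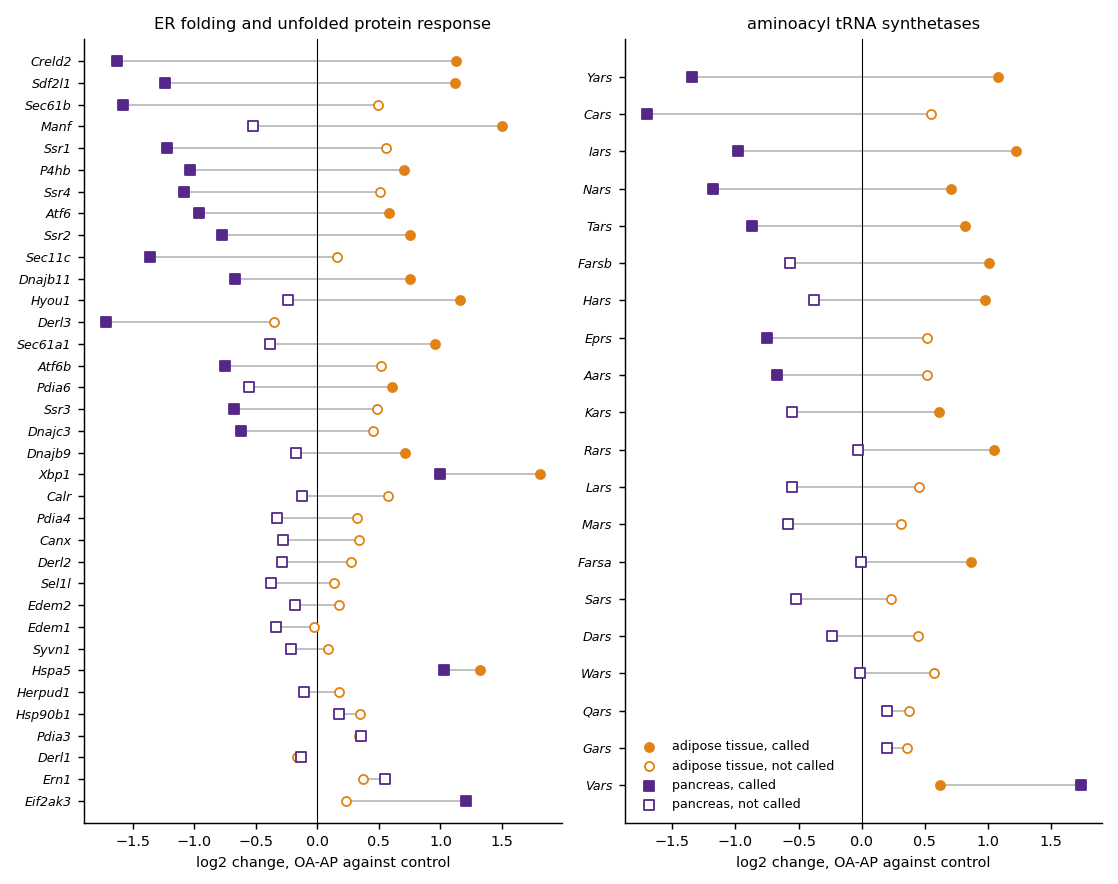
Log2 change in adipose tissue (circles) and pancreas (squares) of the 35 ER folding genes and the 20 aminoacyl tRNA synthetases, sorted by the difference, with filled symbols where the change was called. Most genes lie to the right of 0 in adipose tissue and to the left in pancreas, while Hspa5, Xbp1 and Vars lie to the right in both.

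These lists depend on the scaling, more so in pancreas. By library totals 9 ER folding genes and 7 synthetases rose in adipose tissue, in place of 13 and 10. The adipose rises of Nars, Shmt2, P4hb, Atf6 and Vars then fell short of 1.5-fold (0.42 to 0.57). The differences of Hyou1 (0.56, adjusted p = 0.10) and Dnajb11 (0.58) were no longer called. With library totals alone the pancreas medians were 0.32 for ER folding genes and 0.13 for synthetases, both under the 0.75 of all genes, with 3 and 2 pancreas falls and 10 and 6 differences higher in adipose tissue. The Dnajb11 value in pancreas was then 0.017 in place of -0.67, and the pancreas falls of Iars, Nars, Tars, P4hb, Sdf2l1, Ssr2, Atf6, Mthfd2 and Shmt2 were no longer called, while those of Creld2 and Yars were. In adipose tissue the calls of P4hb, Sdf2l1 and Atf6 also ended without some single adipose libraries (P4hb and Sdf2l1 without control replicate 1 or 3 or OA-AP replicate 3, adjusted p of 0.067 to 0.10, and Atf6, whose fold then fell short of 1.5, without any), and those of Dnajb11 and Ssr2 fell short of that fold without OA-AP replicate 3 (0.53 and 0.58). The Sdf2l1 fall in pancreas was not called without pancreas control replicate 2 (adjusted p = 0.082).

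Promoter windows are printed for 5 of these genes, because members that moved in opposite ways or together share known stress response motifs. They are from RefSeq (GRCm38.p6), 250 bases before to 50 after each transcription start, printed 5′ to 3′ on the strand of the gene. The first pair, Hspa5 (chr2:34771840-34772139, plus strand) and Creld2 (chr15:88819396-88819695, plus strand), is shown because both hold the ER stress response element, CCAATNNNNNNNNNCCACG, searched on both strands and written in capitals, while Hspa5 rose in both tissues and Creld2 moved in opposite ways.
Hspa5: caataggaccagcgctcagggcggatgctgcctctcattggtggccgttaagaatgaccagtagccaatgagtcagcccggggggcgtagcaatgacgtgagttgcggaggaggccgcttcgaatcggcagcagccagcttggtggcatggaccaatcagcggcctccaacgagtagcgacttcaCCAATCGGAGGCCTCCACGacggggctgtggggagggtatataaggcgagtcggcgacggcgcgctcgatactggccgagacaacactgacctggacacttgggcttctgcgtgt
Creld2: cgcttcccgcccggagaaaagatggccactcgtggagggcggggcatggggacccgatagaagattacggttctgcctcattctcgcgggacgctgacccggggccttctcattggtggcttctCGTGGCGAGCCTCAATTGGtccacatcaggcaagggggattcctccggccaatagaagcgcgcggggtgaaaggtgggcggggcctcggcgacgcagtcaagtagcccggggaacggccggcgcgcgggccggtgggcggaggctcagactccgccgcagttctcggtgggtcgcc
The element stood in 9 of the 28 ER folding genes with a window (32.1%), against 37 of all 27025 genes (0.137%). The 9 genes were Calr, Canx, Creld2, Derl3, Dnajc3, Hsp90b1, Hspa5, Pdia6 and Syvn1, of which 1 rose in both tissues, 1 was opposite and 2, Dnajc3 and Pdia6, had a called difference without a call in both tissues.
The next windows belong to Iars (chr13:49681880-49682179, plus strand), Tars (chr15:11399609-11399908, minus strand) and Yars (chr4:129189653-129189952, plus strand), shown because the 3 synthetases moved in opposite ways and share the C/EBP-ATF response element core TGATGNAA, the site of ATF4 and its partners, in capitals on either strand.
Iars: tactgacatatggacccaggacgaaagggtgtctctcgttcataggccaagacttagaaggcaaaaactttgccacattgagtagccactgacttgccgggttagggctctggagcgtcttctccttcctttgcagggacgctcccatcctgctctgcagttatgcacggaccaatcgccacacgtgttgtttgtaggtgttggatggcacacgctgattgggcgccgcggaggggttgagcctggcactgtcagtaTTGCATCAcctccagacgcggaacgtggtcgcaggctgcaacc
Tars: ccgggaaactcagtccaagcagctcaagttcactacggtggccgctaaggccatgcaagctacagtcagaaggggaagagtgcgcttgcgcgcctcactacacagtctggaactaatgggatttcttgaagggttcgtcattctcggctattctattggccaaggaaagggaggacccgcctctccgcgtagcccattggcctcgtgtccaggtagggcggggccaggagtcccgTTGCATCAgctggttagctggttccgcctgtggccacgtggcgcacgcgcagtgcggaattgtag
Yars: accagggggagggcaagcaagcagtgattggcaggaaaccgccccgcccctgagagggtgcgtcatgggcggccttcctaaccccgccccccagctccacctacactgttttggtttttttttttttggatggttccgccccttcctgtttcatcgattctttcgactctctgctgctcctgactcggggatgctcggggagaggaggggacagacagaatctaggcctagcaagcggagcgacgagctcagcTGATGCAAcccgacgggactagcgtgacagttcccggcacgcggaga
That core stood in 5 of the 12 synthetases with a window (41.7%) and in 8 of 24 genes of the ATF4 list (33.3%), against 4.51% of all genes. The 5 were Iars, Tars and Yars, printed above, and Aars and Gars, neither of which was called in both tissues. The difference was called, higher in adipose tissue, for Aars and not for Gars. Among the 8, Nupr1 rose in both tissues, Pycr1 fell in pancreas alone, Slc7a11 rose and Trib3 fell in adipose tissue alone, and Asns, Atf3, Chac1 and Vldlr had no called difference and no call in both tissues. The Slc7a11 rise was not called without any single adipose library but OA-AP replicate 2 (adjusted p of 0.051 to 0.11), nor its difference without adipose control replicate 3 or either pancreas control (0.051 to 0.062). A match describes the letters of the window and not a site in use, and the motifs were chosen after the changes were known.

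Genes that fell in adipose tissue and rose in pancreas included regulators of fuel use and insulin signalling. Mknk2, a kinase of the translation factor eIF4E, read 410.1, 382 and 373 CPM in adipose controls, 167, 96.8 and 171 in adipose OA-AP, 38.4 and 48.6 in pancreas controls and 383, 315 and 478 in pancreas OA-AP. The Mknk2 difference was -4.60 ± 0.35 (adjusted p = 2.2e-05), and its groups did not overlap in either tissue, as the ranking required. Pfkfb3, which makes the activator of the glycolytic enzyme phosphofructokinase, fell from 518, 843 and 684 to 233, 183 and 272 CPM in adipose tissue and rose from 11.8 and 12.2 to 32.4, 27.5 and 51.2 CPM in pancreas. Acot2, a mitochondrial acyl-CoA thioesterase, changed by -0.77 in adipose tissue and 3.10 in pancreas, and Gramd1b, a sterol transporter, by -1.58 and 2.74. Sulf2, which trims sulfate from heparan sulfate outside the cell, changed by -0.64 and 3.21. Ccng2, a cyclin of resting cells, changed by -1.07 and 2.23, the mitochondrial sodium-calcium exchanger Slc8b1 by -0.77 and 2.24, and the transcription factor Klf11 by -1.08 and 1.89. All 8 kept both calls under library totals and when any single library was left out. The class as a whole grew to 467 genes with library totals alone.

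Insulin signalling had opposite members as well. Irs1, the first docking protein below the insulin receptor, read 14.8, 15.3 and 18.4 CPM in adipose controls, 6.76, 7.0 and 7.14 in adipose OA-AP, 1.63 and 1.86 in pancreas controls and 5.24, 5.96 and 4.59 in pancreas OA-AP. Every adipose OA-AP library lay below every adipose control and every pancreas OA-AP library above both pancreas controls (difference -2.81 ± 0.29, adjusted p = 0.0001). The PI3-kinase subunit Pik3cb changed by -1.02 and 1.56, and Akt2, the Akt form of insulin target tissues, by -0.90 and 0.71, although the Akt2 rise in pancreas was not called without pancreas control replicate 1 or 2 (adjusted p of 0.070 and 0.14). Akt1 differed in the other direction: it read 69.3, 69.0 and 75.5 and 89.7, 84.5 and 90.1 CPM in adipose tissue and 275 and 277 and 162, 156 and 137 CPM in pancreas, with a pancreas fall of 0.86, an adipose change of 0.31 that missed the fold and a difference of 1.17 ± 0.15 (adjusted p = 0.00037). By library totals the Akt1 difference was 0.31 and the pancreas value -0.17, neither called. Of the 29 genes of the PI3K and Akt list, 1 rose and 5 fell in adipose tissue, 10 rose and 2 fell in pancreas, and 7 differences were lower in adipose tissue and 2 higher. Of all genes, 13.0% and 8.63% rose and fell in adipose tissue and 19.5% and 15.0% in pancreas, and the difference was lower in 13.4% and higher in 14.2%. On library totals this list had 21 pancreas rises and 20 differences lower and 0 higher. Without pancreas control replicate 2 there were 6 pancreas rises, and without adipose OA-AP replicate 1 there were 11 lower differences.

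**Figure D4:**
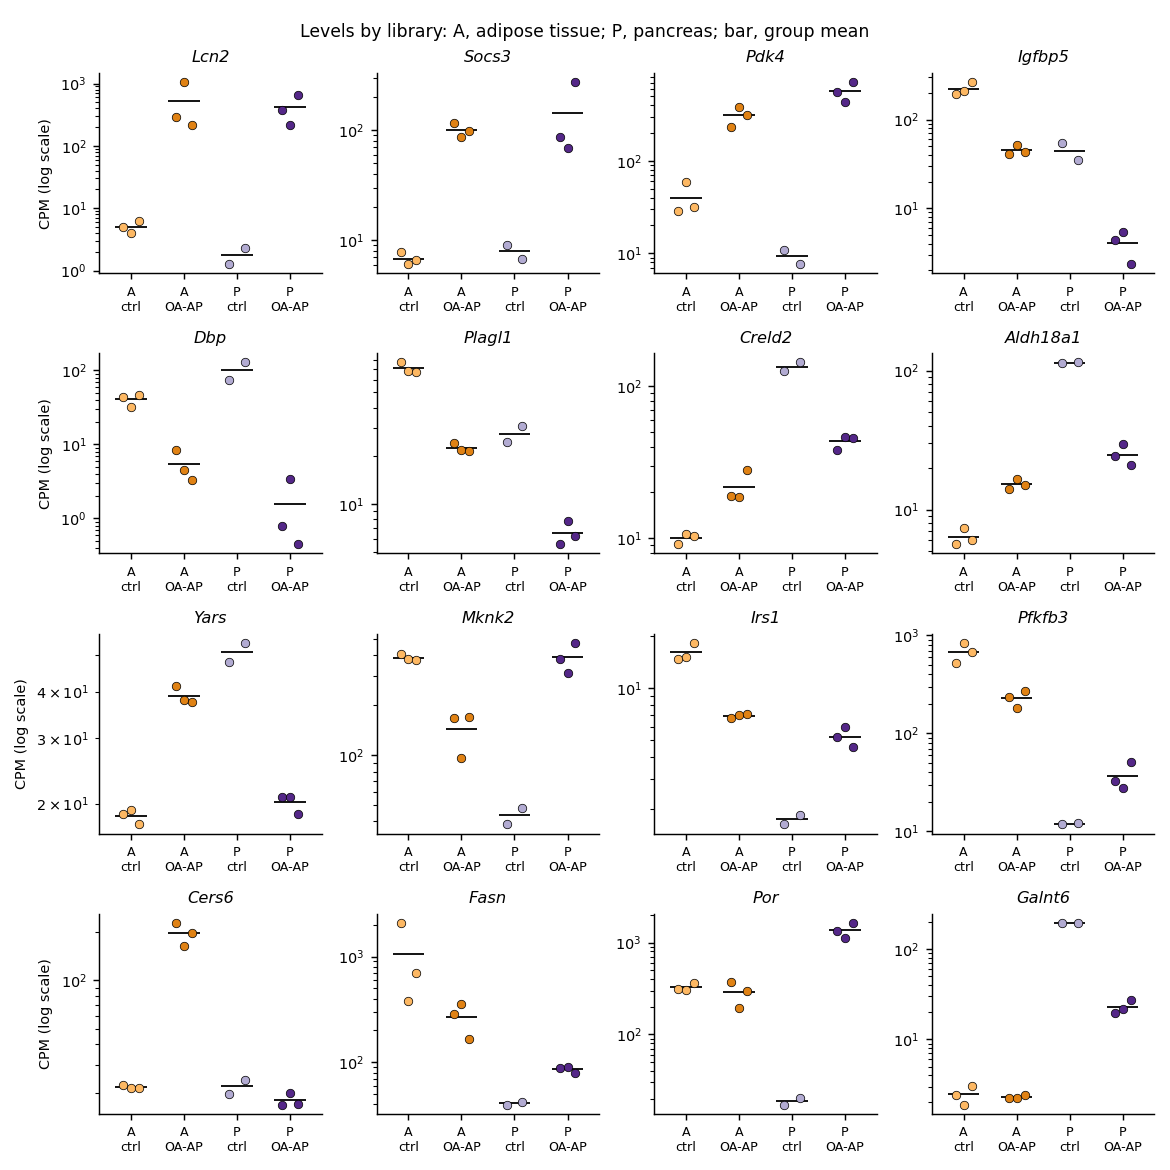
Level of 16 genes in each library, in CPM on a log axis whose range differs between panels, for adipose tissue (A) and pancreas (P), control and OA-AP, with the group mean as a bar. Lcn2, Socs3 and Pdk4 rose in both tissues and Igfbp5, Dbp and Plagl1 fell in both. Creld2, Aldh18a1 and Yars rose in adipose tissue and fell in pancreas, and Mknk2, Irs1 and Pfkfb3 did the reverse. Cers6 and Fasn were called in adipose tissue alone, and Por and Galnt6 in pancreas alone. The pancreas OA-AP libraries of Fasn lay above its pancreas controls without a call.

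Ribosome assembly genes rose and fat synthesis genes fell in adipose tissue, with fewer calls in pancreas. Of 33 ribosome biogenesis genes, 27 rose in adipose tissue and 11 in pancreas, 10 of them in both, and the median changes were 1.24 and 0.32. The shares of all genes were 13.0%, 19.5% and 4.73%, and 14.2% had a higher difference. The nucleolar protein Nop56 read 19.3, 19.3 and 19.6 CPM in adipose controls, 69.2, 47.2 and 55.8 in adipose OA-AP, 28.8 and 33.5 in pancreas controls and 31.8, 26.4 and 26.2 in pancreas OA-AP. It rose in adipose tissue only, and its difference was 1.71 ± 0.22 (adjusted p = 0.00033), whereas Rrp12, an export factor of ribosomal subunits, rose in both (2.18 and 2.01). By library totals the ribosome biogenesis medians were 1.07 and 1.01, with 23 and 27 rises and 4 differences lower and 3 higher, so the separation of the tissues in this list rests on the scaling. Without pancreas control replicate 2 there were 7 pancreas rises and 10 differences in place of 16. The 81 cytosolic ribosomal protein genes had few within-tissue calls, 5 up in adipose tissue and 8 down in pancreas, but 45 called differences, all higher in adipose tissue (medians 0.42 and -0.29). This too rested on the scaling: by library totals 2 differences were higher and 2 lower, with medians of 0.25 and 0.40. The 45 became 20, 23, 25 and 18 without adipose control replicate 1, adipose OA-AP replicate 1 or 3 or pancreas control replicate 2, and the highest count with a library left out was 60.

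Of 21 genes of de novo lipogenesis, which makes fatty acids and triglyceride from sugar, 8 fell in adipose tissue (5 without adipose OA-AP replicate 3), while 4 fell and 1 rose in pancreas. Of all genes, 8.63% fell in adipose tissue, and 15.0% fell and 19.5% rose in pancreas. Fasn, fatty acid synthase, read 2086, 382 and 704 CPM in adipose controls and 284, 352 and 167 in adipose OA-AP, and 39.9 and 42.6 and 88.0, 89.5 and 80.0 CPM in pancreas. Every pancreas OA-AP library lay above both pancreas controls, a rise that was not called, and the difference was -3.04. The adipose controls spread widely, from 382 to 2086 CPM, and the change was -1.12 without the highest, control replicate 1. The fall of 1.98 ± 0.53 was not called without adipose OA-AP replicate 3 (-1.81, adjusted p = 0.066) or replicate 1 (-2.10, adjusted p = 0.050). Dgat1 (-1.61 and 0.38) and Agpat2 (-1.73 and -0.07), which build triglyceride, and the lipogenic transcription factor Srebf1 (-1.20 and -0.35) fell in adipose tissue, with the difference called for the first pair and not for Srebf1. In pancreas the fall was in Scd2, a fatty acid desaturase, from 85.0 and 84.3 to 5.91, 13.0 and 2.91 CPM, against 59.3, 19.1 and 21.1 and 23.8, 50.0 and 31.4 CPM in adipose tissue.

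Other genes called in adipose tissue alone were Cers6, a ceramide synthase, which read 22.6, 21.5 and 21.6 CPM in adipose controls, 228, 164 and 196 in adipose OA-AP, 19.7 and 24.2 in pancreas controls and 16.9, 20.1 and 17.0 in pancreas OA-AP (difference 3.45 ± 0.21, adjusted p = 1.1e-05). The adipose rise of 3.16 was without a counterpart in pancreas (-0.28, adjusted p = 0.22). Uap1, an enzyme of amino sugar synthesis, rose by 2.53 and Sema7a, a membrane-anchored semaphorin, by 1.87. Adap2os rose by 1.22 with a difference of 2.60, so its uncalled pancreas value was a fall larger than the adipose rise. The adipose value is uncertain because Adap2os is an antisense gene and the counting is not stated to use strand. It was not called without any of 4 single adipose libraries (adjusted p of up to 0.097). On the side of falls stood Slc22a23, an orphan transporter (-2.13), Chst1, a keratan sulfotransferase (-2.54), Lhfpl2 (-1.71) and Mmd (-0.70). Their differences of -2.75, -2.90, -2.21 and -2.15 exceeded these falls, so each uncalled pancreas value was a rise. The Mmd rise in pancreas was larger than its adipose fall. The Chst1 difference ended without any of 9 single libraries (-1.69, adjusted p = 0.23 without pancreas OA-AP replicate 3), that of Lhfpl2 without pancreas control replicate 1 (0.097), and those of Mmd, Fasn, Agpat2 and Adap2os without either pancreas control. The Mmd fall in adipose tissue also ended without any of 6 single libraries (adjusted p of 0.050 to 0.068).

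Neutrophil genes rose in adipose tissue, while in pancreas the median rises were as large but few were called by edgeR. Of 8 genes of neutrophil-recruiting chemokines and their receptors, 7 rose in adipose tissue and 0 were called in pancreas by edgeR. The pancreas count was 4 at an unadjusted p under 0.05, 7 with DESeq2 and 0 with limma voom, the medians were 5.16 and 5.61, and no difference was called. The pancreas count was 3 without pancreas OA-AP replicate 1 and 5 without replicate 2. Cxcl5 read 0, 0.0225 and 0.0544 CPM in adipose controls, 45.6, 25.6 and 51.2 in adipose OA-AP, 0 in both pancreas controls and 3.01, 0.730 and 52.2 in pancreas OA-AP, so that pancreas OA-AP replicate 3 stood far above the other two. Cxcl1 behaved alike, at 45.4, 10.7 and 59.0 CPM in adipose OA-AP and 2.79, 1.70 and 36.0 CPM in pancreas OA-AP. The neutrophil marker list of 19 genes summed to 28.2 to 38.9 CPM in adipose controls, 149.2 to 163.4 in adipose OA-AP, 4.53 to 7.03 in pancreas controls and 13.1 to 274.9 in pancreas OA-AP, again highest in replicate 3. Of its 10 genes measured in both tissues, 8 rose in adipose tissue and 2, S100a8 and S100a9, in pancreas as well. These pancreas calls ended without pancreas OA-AP replicate 3 (adjusted p of 0.057 and 0.054) and without 5 and 7 other single libraries. The pancreas count of the list was 7 without pancreas OA-AP replicate 1 or 2 and 7 with DESeq2, and 0 with limma voom, so it moved from 0 to 7 with the libraries and tools used. The part of neutrophils in the shared inflammation genes was not tested.

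Mitochondrial respiration genes fell in pancreas. Of 75 oxidative phosphorylation genes, 54 fell in pancreas and 48 differences (30 without pancreas control replicate 2) were higher in adipose tissue (medians -0.08 in adipose tissue and -0.86 in pancreas). The shares over all genes were 15.0% and 14.2%. In adipose tissue edgeR, DESeq2 and limma voom each called 0, with 1 rise and 11 falls at an unadjusted p under 0.05. Ndufs8 of complex I read 21.7, 19.1 and 17.8 CPM in adipose controls, 21.6, 18.5 and 19.4 in adipose OA-AP, 36.2 and 40.5 in pancreas controls and 11.3, 11.9 and 10.4 in pancreas OA-AP. The ATP synthase genes Atp5g1 (0.39 and -1.73) and Atp5j2 (0.01 and -1.54) had, with it, the smallest p for the difference. The list lost this separation in absolute terms with library totals alone, where 10 genes fell in pancreas, the pancreas median was -0.18 against 0.75 for all genes, and the median difference was -0.03 against -0.83. Of 12 mitochondrially encoded genes, 1 fell in pancreas.

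Fat burning and lipid droplet genes went the other way. Of all genes, 19.5% rose and 15.0% fell in pancreas, 13.0% rose and 8.63% fell in adipose tissue, and 13.4% had a lower difference. Of 26 fatty acid oxidation genes, 12 rose and 5 fell in pancreas (3 falls without pancreas control replicate 1), 3 rose and 3 fell in adipose tissue (5 falls without adipose OA-AP replicate 2 or pancreas OA-AP replicate 3), and 14 differences were lower in adipose tissue. Cpt1a, which carries fatty acids into mitochondria, rose in pancreas by 1.10 and Acadl, a long-chain dehydrogenase, by 1.69, with adipose values of -0.06 and 0.16. Of 16 lipolysis and lipid droplet genes, 8 rose in pancreas and 4 in adipose tissue, 3 of them in both. Plin2, a coat protein of lipid droplets, went from 4.53 and 4.75 to 72.7, 63.4 and 143 CPM in pancreas and from 129.8, 144 and 125 to 314, 276 and 348 CPM in adipose tissue, with a larger rise in pancreas (difference -3.09 ± 0.44, adjusted p = 0.00077). Pnpla2, the triglyceride lipase ATGL, rose by 2.83 in pancreas, and its value in adipose tissue, where it was most abundant, was 0.50 (not called). In pancreas the list of 18 adipocyte markers summed to 322.6 to 364.5 CPM in controls and 314.4 to 327.5 CPM in OA-AP, and of its 7 genes measured in both tissues 2 rose and 1 fell there. The adipocyte genes Adipoq, Plin1, Cidec and Lep were at or under 0.487 CPM in all 5 pancreas libraries, while Fabp4, a fatty acid binding protein of adipocytes and endothelium, read 50.5 and 78.1 CPM in controls and 78.7, 77.7 and 150.0 CPM in OA-AP. Their part in the lipid gene rises was not tested.

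Of 37 autophagy genes, 15 rose in pancreas and 3 in adipose tissue, against 19.5% and 13.0% of all genes. By library totals 31 rose in pancreas, where the median of all genes was then 0.75. Vmp1, which builds autophagosomes, rose in both tissues (1.01 and 3.76, difference -2.75 ± 0.24, adjusted p = 4.6e-05). Map1lc3b (0.46 and 1.65) and Sqstm1 (-0.02 and 1.00), which encode LC3B and p62, rose in pancreas alone, although the Sqstm1 difference was not called without either pancreas control (adjusted p of up to 0.092). Of 30 interferon-stimulated genes, 13 fell in pancreas (median -1.64), 1 rose in adipose tissue (median -0.21) and 3 differences were called, all higher in adipose tissue. Of all genes, 15.0% fell in pancreas, 13.0% rose in adipose tissue and 14.2% had a higher difference. These counts turned on single libraries. Without adipose control replicate 2, the library with acinar RNA, 17 differences were called and the adipose median was 0.34, whereas without pancreas control replicate 1 or OA-AP replicate 3 the pancreas falls numbered 1 or 5, and the differences 1 without the former. DESeq2 called 18 pancreas falls and 9 differences, and limma voom 3 and 2. Oas2, an antiviral enzyme, read 38.8 and 14.1 CPM in pancreas controls, 1.23, 5.72 and 2.35 in pancreas OA-AP, 15.1, 32.4 and 11.5 in adipose controls and 22.4, 23.9 and 33.3 in adipose OA-AP. Its pancreas fall rested on control replicate 1, the higher one, and was not called without it (-2.20, adjusted p = 0.081). Of 22 cholesterol synthesis genes and the LDL receptor, 8 fell in pancreas and 5 rose in adipose tissue, with 6 differences higher in adipose tissue. The adipose rises did not hold: there were 0 without adipose control replicate 2 or 3 or OA-AP replicate 1 or 3, 1 without control replicate 1, and 0 by library totals, where 4 genes fell and 4 rose in pancreas and 3 differences were higher and 4 lower. Pancreas falls numbered 4 without pancreas control replicate 2 and 4 with limma voom.

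Among genes with an average log2 CPM not under 3 in pancreas and not under 0 in adipose tissue, the rises in pancreas alone with the largest differences were those of Por, the electron donor of all microsomal cytochrome P450 enzymes, and of Gpr161, a receptor of the primary cilium. Por read 314, 304 and 358 CPM in adipose controls, 373, 192 and 296 in adipose OA-AP, 17.2 and 20.5 in pancreas controls and 1343, 1129 and 1640 in pancreas OA-AP, a rise of 72.8-fold in pancreas (log2 6.19 ± 0.34, adjusted p = 2e-06) beside an adipose change of -0.18 ± 0.22. Gpr161 went from 2.54 and 1.45 to 73.7, 52.2 and 116 CPM in pancreas and read 2.03, 2.09 and 2.81 and 1.71, 1.97 and 1.81 CPM in adipose tissue. Cnbd2, a cyclic nucleotide binding protein, rose by 4.93 in pancreas, Rgs2, an inhibitor of G protein signalling, by 3.19, and Depp1, a stress gene of autophagy, by 3.51. The Rgs2 call ended without pancreas control replicate 2 (2.76, adjusted p = 0.089), and the Depp1 call without pancreas control replicate 1 (2.80, adjusted p = 0.13) or OA-AP replicate 3 (2.82, adjusted p = 0.058). Among the falls in pancreas alone were Galnt6, an enzyme of mucin-type glycosylation, from 197 and 197 to 19.5, 21.9 and 27.7 CPM, Cacna1a, a calcium channel subunit, from 49.6 and 54.1 to 3.23, 4.14 and 2.57 CPM, and the mitochondrial acetate enzyme Acss1, from 39.3 and 39.9 to 7.80, 9.49 and 7.94 CPM. In adipose tissue Galnt6 read 2.42, 1.89 and 3.05 CPM in controls and 2.23, 2.23 and 2.43 in OA-AP, so it stayed low there in all 6 libraries.

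The genes that the study itself followed belonged to several classes. Hmox1, haem oxygenase 1, rose in both tissues, from 24.0, 26.3 and 20.3 to 121, 134 and 194 CPM in adipose tissue and from 2.54 and 3.10 to 9.81, 21.7 and 43.4 CPM in pancreas, although the pancreas call ended without control replicate 1 (3.01, adjusted p = 0.051). Nfe2l2, which encodes the oxidant-responsive factor Nrf2, rose in pancreas by 1.55 ± 0.18, with 0.34 ± 0.14 in adipose tissue and a called difference of -1.22 (adjusted p = 0.003). Of 33 genes of the Nrf2 list, 10 rose in each tissue and 5 in both, and 3 fell in adipose tissue and 5 in pancreas, with medians of 0.03 and 0.13. The shares of all genes that rose were 13.0% in adipose tissue, 19.5% in pancreas and 4.73% in both, and 8.63% and 15.0% fell. The pancreas rises numbered 5 without either pancreas control and 5 with limma voom. The rises in both ranged from 1 to 5 with single libraries left out (3 without any adipose control, adipose OA-AP replicate 1 or pancreas OA-AP replicate 3, and 1 and 2 without pancreas control replicate 1 and 2), with 1 by limma voom. By library totals there were 17 pancreas rises and 14 differences lower in adipose tissue, in place of 3. Bax, a cell death effector, rose in both (0.88 and 1.30). Its opponent Bcl2 read 12.9, 15.6 and 13.8 CPM in adipose controls, 20.2, 25.3 and 20.3 in adipose OA-AP, 7.97 and 7.65 in pancreas controls and 2.23, 3.41 and 3.02 in pancreas OA-AP. It rose in adipose tissue by 0.64 and fell in pancreas by 1.44, with a difference of 2.08 ± 0.27 (adjusted p = 0.00035), and the adipose call ended without control replicate 1 or 3 or OA-AP replicate 2 (0.45 to 0.54). Bcl2l1, which encodes the survival protein BCL-XL, rose in pancreas from 17.2 and 15.9 to 163, 99.0 and 420.0 CPM and was not called in adipose tissue (0.45). Its difference was not called without pancreas control replicate 2 (adjusted p = 0.051).

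**Figure D5:**
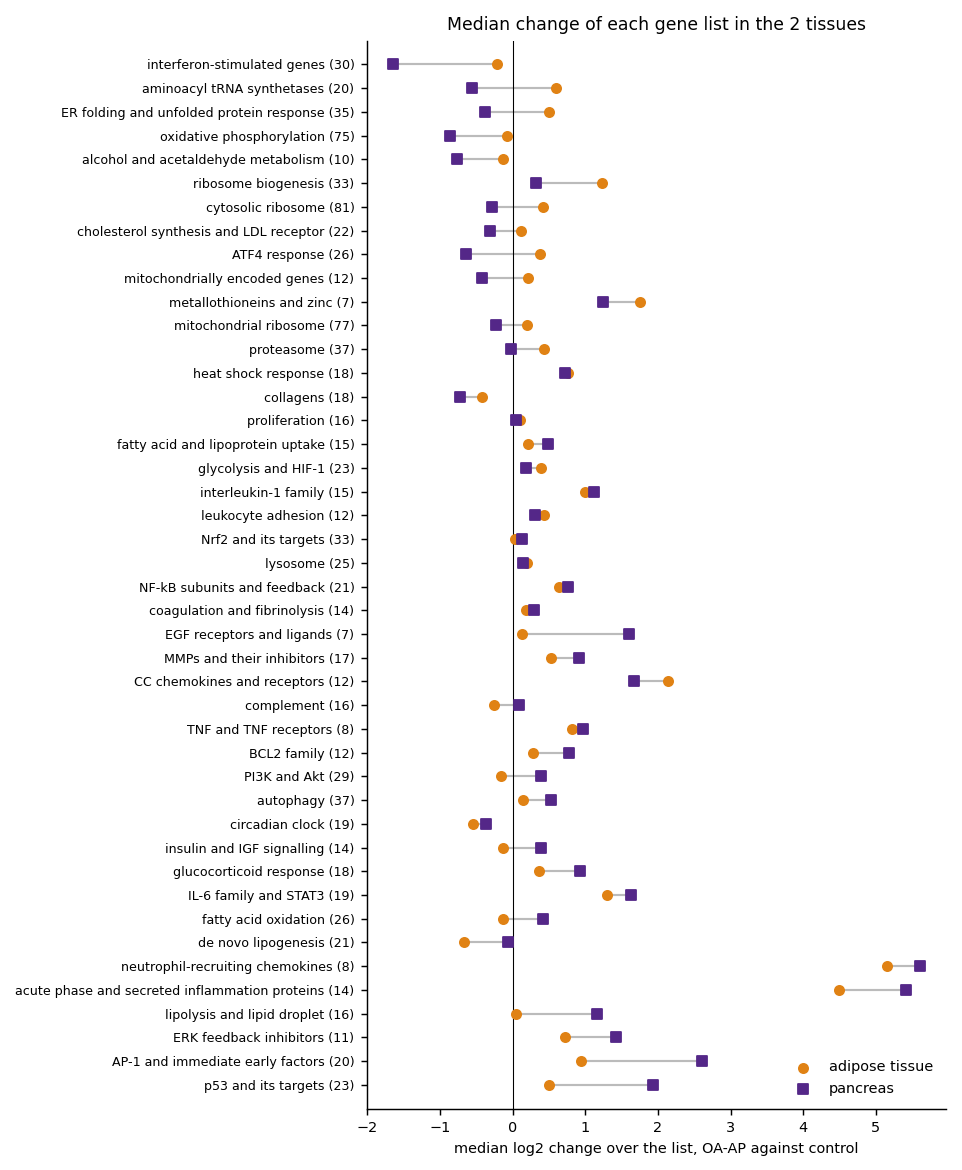
Median log2 change of each gene list in adipose tissue (circles) and pancreas (squares), OA-AP against control, with the number of genes measured in both tissues in brackets and lists sorted by the median difference. The acute phase and neutrophil-recruiting chemokine lists lie far to the right in both tissues, and other inflammation lists, such as complement and NF-kB, lie nearer to 0. Interferon, synthetase, ER folding and oxidative phosphorylation lists lie further left in pancreas, and p53, early response and lipolysis lists lie further right in pancreas.

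The remaining lists are given by their counts. Of all genes, 13.0% rose and 8.63% fell in adipose tissue, and 19.5% rose and 15.0% fell in pancreas. Of 16 proliferation genes measured in both, 1 rose and 1 fell in adipose tissue and 2 rose in pancreas, with medians of 0.10 and 0.05. Of 13 endothelium markers 1 rose in adipose tissue and 4 fell in pancreas (2 without either pancreas control or OA-AP replicate 1). The 18 collagen genes had 3 rises and 5 falls in adipose tissue and 2 and 4 in pancreas, with Col4a1 and Col4a2 of the basement membrane up in both. With single libraries left out the collagen falls ranged from 2 to 8 in adipose tissue (2 without OA-AP replicate 1 or 3, 3 without control replicate 1 or 3 or pancreas OA-AP replicate 1, 8 without OA-AP replicate 2) and from 1 to 7 in pancreas (1 without control replicate 1 or OA-AP replicate 3, 2 without OA-AP replicate 2, 7 without adipose OA-AP replicate 1 or 2). Macrophage and monocyte markers summed to 655.6 to 822 CPM in adipose controls, 910.2 to 1177 in adipose OA-AP, 198 to 299 in pancreas controls and 265 to 524 in pancreas OA-AP, with 8 of 17 genes up in adipose tissue and 2 of these up in pancreas too. The adipose count was 4 and 3 without adipose control replicate 1 and 3 and 5 and 3 without OA-AP replicate 1 and 3, and the pancreas count 1 and 0 without pancreas control replicate 1 and 2. The islet and epididymis marker lists had no gene at 1 CPM or more in both tissues.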

How the data were processed

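RNA was sequenced from 6 adipose tissue and 5 pancreas samples. The authors deposited 1 table of raw read counts per gene for each tissue. Per the labels and the study's methods, NEBNext libraries were read as paired ends, trimmed (Trim Galore 0.6.6, fastp 0.20.1), aligned with STAR to GRCm38 and counted with featureCounts 2.0.1. The annotation release and the strand setting are not given in the sources used here, so reads of overlapping and antisense genes cannot be told apart. The tables list 46078 and 54532 genes and were joined on gene ID (45260 genes), with 3441 joined genes bearing different symbols in each.

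Counts were analysed with edgeR 4.0.16 in R 4.3.3: TMM scaling over all 11 libraries, filterByExpr (17046 genes kept), a quasi-likelihood fit with 4 groups sharing 1 estimate of the spread (biological coefficient of variation 0.222) and contrasts for each tissue and for their difference. A call needed a Benjamini-Hochberg adjusted p under 0.05 over all genes fitted and a fold of at least 1.5. Every adjusted p in the text comes from this edgeR test unless another tool is named, and log2 CPM used a prior count of 2. The study tested each tissue apart with DESeq2. DESeq2 1.42.0, limma voom (limma 3.58.1), other scalings, filters and thresholds, and leaving out each library were run as alternatives. In simulated counts for the difference between tissues (17046 genes), the fit recovered 15 of 100 differences of log2 size 1 and 80 of 100 of log2 size 2, with 2 false among 97 calls, so an uncalled small difference is not evidence of equality.

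Genes are named by rank: the 8 with the largest smaller change (same direction) or the largest difference (opposite directions), and the 5 up and 5 down in each tissue alone, without placeholder names, with an average log2 CPM not under 3 where called and not under 0 elsewhere, and with no overlap of groups where called. Up to 3 members of each gene list by smallest p, and the genes the study names, were added. Further members of the lists (such as Junb, Eda2r, Cxcl5, Oas2 and Ddit3) were chosen after their values were seen. The gene members and lists were chosen with earlier results of these data known. The labels do not say that samples of a group are separate mice, so the p-values measure only the spread between these samples. Promoter windows came from RefSeq, and motifs were searched on both strands. Genes of the lists were matched to windows by gene ID, or by symbol where no ID matched. The printed windows were taken by symbol.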

Additional observations from a re-analysis of the deposited data

Results flagged for a closer look

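Each value here is a change that differed between the tissues by the edgeR test of the difference itself, given as the adipose log2 change minus the pancreas log2 change. The number of such genes was 3507 of 17046 (20.6%).

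Among genes that rose in adipose tissue and fell in pancreas, the difference was 4.93 for Creb3l1, 3.78 for Cryab, 3.46 for Aldh18a1, 3.22 for Lgi2, 2.75 for Creld2, 2.75 for Sec24d, 2.74 for Atp8b1 and 2.70 for Ampd2. Among genes that fell in adipose tissue and rose in pancreas it was -4.60 for Mknk2, -4.33 for Gramd1b, -3.87 for Acot2, -3.86 for Sulf2, -3.30 for Ccng2, -3.20 for Pfkfb3, -3.01 for Slc8b1 and -2.97 for Klf11.

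Among genes changed in adipose tissue alone it was 3.75 for Mt2, 3.45 for Cers6, 2.90 for Uap1, 2.65 for Sema7a, 2.60 for Adap2os, -3.04 for Fasn, -2.90 for Chst1, -2.75 for Slc22a23, -2.21 for Lhfpl2 and -2.15 for Mmd. Among genes changed in pancreas alone it was -6.37 for Por, -5.65 for Gpr161, -5.03 for Cnbd2, -4.96 for Rgs2, -4.60 for Depp1, 3.63 for Scd2, 3.59 for Cacna1a, 3.14 for Pycr1, 3.12 for Acss1 and 3.0 for Galnt6. The genes were ranked by these differences, so their sizes are a description of the ends of the ranking.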

How the results depend on the processing

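Counts of genes moved most with the scaling and the thresholds. With library totals alone the differences over all genes numbered 6527 in place of 3507, the falls in both tissues 155 (306), the adipose rises with a pancreas fall 16 (114), the reverse 467 (118) and the changes in pancreas alone 3640 (1598). DESeq2 called 461 falls in both tissues. Limma voom called 358 rises in both (542) and 1058 changes in pancreas alone, and a minimum of 10 counts in every library left 332 rises in both. At a fold of 2 the rises and falls in both numbered 224 and 125, the opposite classes 21 and 33, and the changes in adipose tissue alone and in pancreas alone 229 (511) and 937. With no fold threshold, 842 rises in both and opposite classes of 252 and 210 genes were counted. Of 3507 differences, DESeq2 shared 3429, limma voom 2667 and library totals 2106. With single libraries left out the differences ranged from 2332 to 3654, the rises in both from 353 to 609, the falls in both from 188 to 400, the opposite classes from 67 to 121 and from 82 to 168, the changes in adipose tissue alone from 345 to 596 and those in pancreas alone from 1097 to 1734. Of 304 gene values followed, 252 kept their call without every single library, 52 lost it without at least 1 and 0 changed sign. Only Dnajb11 in pancreas changed sign under a scaling, to 0.017 with library totals.

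The replicate numbers were not treated as pairs, since the labels tie no samples and not every pair's correlation was over 0.1. Deviations of same-numbered adipose and pancreas libraries correlated across genes at -0.0387 to 0.157, and 4 of 10 libraries deviated most like that of their own number. With the replicate block of adipose and pancreas libraries of one number, 2156 differences were called, and with the number as a block over all groups 2951. In pancreas 2 controls limit every call.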

Other observations

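Gene lists not described in the report gave these counts. Of all genes, 13.0% rose and 8.63% fell in adipose tissue, and 19.5% rose and 15.0% fell in pancreas. The difference was higher in adipose tissue for 14.2% and lower for 13.4%. Of 77 mitochondrial ribosome genes measured in both tissues, 6 rose in adipose tissue, 4 rose and 20 fell in pancreas, and 28 differences were higher in adipose tissue and 1 lower (medians 0.20 and -0.23). This turned with the scaling: by library totals 25 rose and 3 fell in pancreas, with a median of 0.45 there, and 1 difference was higher and 21 lower. The 28 became 15, 18, 18 and 15 without adipose control replicate 3, adipose OA-AP replicate 1, pancreas control replicate 1 and pancreas control replicate 2. Of 17 matrix metalloproteinases and their inhibitors, which remodel the extracellular matrix, 8 rose and 3 fell in adipose tissue, 5 rose and 2 fell in pancreas, and 5 rose and 2 fell in both, with no called difference. Without either pancreas control 3 rose in both, and by library totals 6 differences were lower in adipose tissue. Of 10 genes of alcohol and acetaldehyde metabolism, 1 fell in adipose tissue and 5 fell and 1 rose in pancreas, with 4 differences higher in adipose tissue and 1 lower. By library totals 2 fell and 3 rose in pancreas, with 2 differences higher and 3 lower.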
